A study of Sus scrofa with 19 samples.

Results

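Within each of 5 gilts (young female pigs, Sus scrofa), the endometrium of the uterine horn infused with hormones was set against the endometrium of the gilt's own placebo horn. The comparison takes every treated gilt for which arrays of both horns were analysed (gilts 36, 38, 41, 44 and 47), 10 of the 19 arrays of the series. The hormone horn of gilt 40 has no partner among the arrays and was left out of the comparison. All gilts were crossbred and aged 8 months, and both horns of each were cannulated by surgery on days 8 to 9 of the oestrous cycle, so surgery, cannula and infused volume were shared by every horn described here. A hormone horn received prostaglandin E2 (PGE2, 200 µg) together with estradiol (33.3 µg) at each infusion, repeated every 4 h over 24 h between days 11 and 12 of the cycle. The placebo horn of the same gilt received the vehicle at the same times, 5 mL of saline with 1% ethanol. In 4 control gilts (9, 14, 28 and 46) both horns received the vehicle, which gives the difference that arises between horns without hormone. Neither hormone was given alone, so the action of each cannot be told apart. Both horns of a gilt share its circulation, which limits the placebo horn as an untreated control. The labels also mark each horn L or P, with no meaning given: L for the placebo horn and P for the hormone horn in all 5 gilts. The partners also differed in their place on the slide, hormone horns at even and placebo horns at odd positions, and the P and L horns of control gilts were placed the same way. Mark, position and treatment therefore cannot be told apart from the treated gilts alone, and the P minus L difference of the control gilts is the background measured with the same mark and position.

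The pig conceptus releases estradiol when it begins to elongate, and this estrogen is its signal of pregnancy to the mother. The endometrium then keeps the corpora lutea by sending less prostaglandin F2α into the blood and making relatively more PGE2, which acts through receptors that raise or lower cAMP. Estrogen also brings out endometrial genes such as LPAR3, FGF7 and SPP1, and the surface and glandular epithelium secretes proteins and transports nutrients that feed the conceptus before it attaches.

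On all 19 arrays the tissue carried the markers of endometrium that were measured. The 10 measured of 23 epithelial markers, EPCAM and KRT8 among them, and the 9 measured of 19 stromal markers, COL1A2 and DCN among them, were well above background on every array; KRT18, KRT19, VIM, COL1A1 and COL3A1 were not measured. Between 79.1% and 88.4% of spots per array passed the scanner's test against background. All measured markers of T and natural killer cells (17), macrophages and dendritic cells (16), endothelium (10) and smooth muscle (9) passed it on every array too. Passing it therefore does not set endometrium apart from other tissues here. Each array's 75th percentile of intensity, to which all levels below are relative, was lowest in the hormone horn of gilt 36 (597, against 983 in its placebo horn). Both horns of a gilt lay on 1 slide and were scanned on 1 day: gilts 36 and 44 on the first day, gilt 41 on the second, and gilts 38 and 47 on the third. The summed linear level of the macrophage and dendritic cell markers reached 276 in the hormone and 314 in the placebo horn of gilt 47, in units of the array's 75th percentile, against medians of 65.2 and 58.4 over the gilts. Gilt 47 also had the highest sum of neutrophil, T cell and B cell markers in both horns, so immune genes are read within gilts below.

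On a set of probes picked after the values were seen, 3 arrays stood apart. On 52 probes, only 2 of them with a gene symbol, the hormone horn exceeded the placebo horn by more than 2 log2 units in gilts 36 and 44 while the order was reversed by more than 2 in gilt 38. No probe had the opposite pattern. The median log2 level of these probes was -1.88 in the hormone horn of gilt 36, -4.69 in the hormone horn of gilt 44 and -4.27 in the placebo horn of gilt 38, and lay between -7.75 and -6.83 on the other 16 arrays. Across all probes the horn differences of gilts 36 and 44 correlated at 0.51 and those of gilts 36 and 38 at -0.41 (a description over probes, which share their arrays). Gilts 41 and 47 hold none of these 3 arrays, so their values are given below beside the results.

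**Figure D1:**
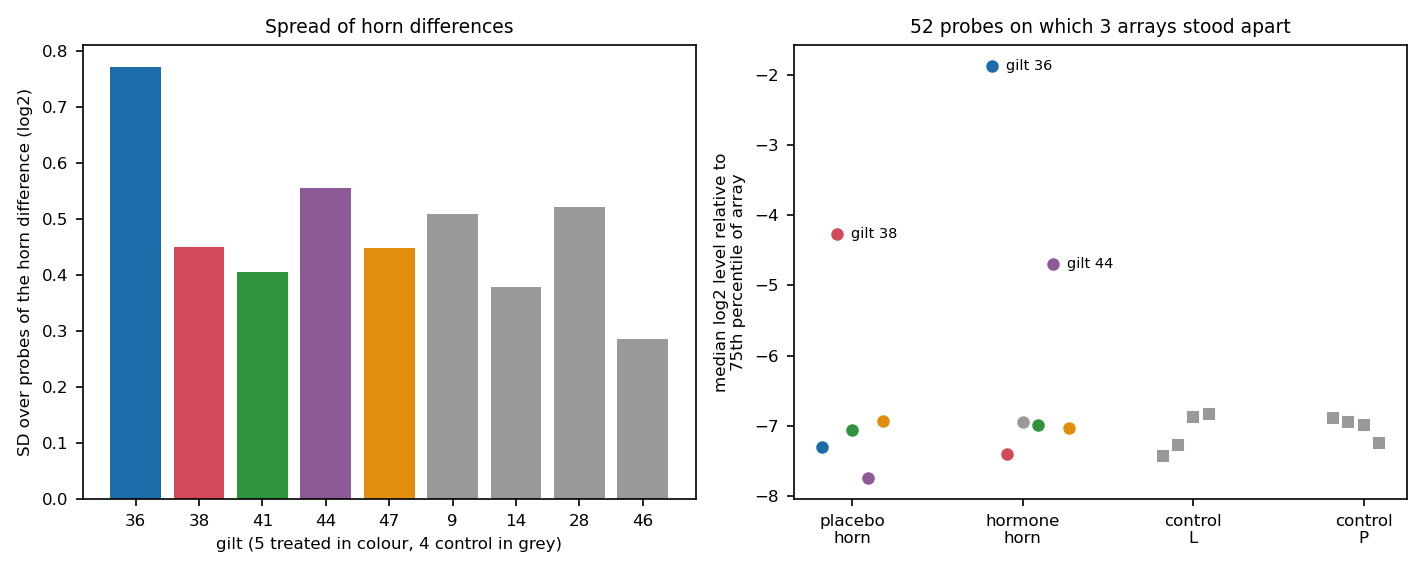
Left, the SD over all tested probes of the log2 difference between horns of each gilt (coloured bars, hormone minus placebo horn of 5 treated gilts; grey bars, P minus L horn of 4 control gilts). Right, the median log2 level of the 52 probes on each array, by group (coloured circles, treated gilts; the grey circle among hormone horns, gilt 40; squares, control gilts): the hormone horns of gilts 36 and 44 and the placebo horn of gilt 38 lie above all other arrays.

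Most probes differed little between horns, and none differed by enough to pass a test across the array. Of 39075 tested probes, 0 (0%) passed an adjusted p of 0.05 in limma with the gilt as a block (smallest adjusted p 0.170). At an unadjusted p under 0.05, called the nominal level below, 1750 probes (4.48%) were higher and 840 (2.15%) lower in the hormone horn. In all 5 gilts 2078 probes (5.32%) were higher and 938 (2.4%) lower. Among the 3007 genes with a symbol, which rest on 1 probe each, 214 (7.12%) were higher and 76 (2.53%) lower at the nominal level, and 191 (6.35%) were higher and 72 (2.39%) lower in all 5 gilts. A positive mean was found for 1991 of these genes and a negative one for 1016. These shares are the background for every gene list below. The lists were chosen with earlier results of these data known, so counts set against these shares describe and do not test. Leaving out 1 gilt moved the genes at the nominal level to between 109 (without gilt 44) and 315 (without gilt 38) higher and between 63 and 99 lower, so small list counts move with single gilts too. The shares depend on the scaling. Higher probes made up 67.6% of the nominal calls here, 52.1% after quantile normalization, 52.7% in the authors' deposited log2 table and 51.3% after normexp background correction. The median difference over genes with a symbol was 0.08, 0.02, 0.03 and 0.02 log2 units in the same order. Since nothing passed the adjusted threshold, genes are described by how many gilts shared a direction and by the size of the difference with its standard error, and no gene is said to have changed.

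The control gilts give the size of a difference between horns that both received vehicle. There, 0 of 39081 probes (0%) passed the adjusted threshold in limma, with 647 higher and 1130 lower in the P horn at the nominal level. The horn difference of the treated gilts minus that of the control gilts also left 0 of 39076 probes (0%) past it (smallest adjusted p 0.273), with 1122 positive and 353 negative at the nominal level. Among 3009 genes with a symbol, 138 (4.59%) had a positive and 26 (0.864%) a negative difference of differences at that level. When gilts were ignored as pairs (no replicate block), again 0 probes passed, with 417 higher and 169 lower at the nominal level.

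Among the 24 genes with the smallest p and 1 direction in all gilts, the widest difference was that of LPAR3, a receptor for lysophosphatidic acid that estrogen is known to raise in pig endometrium. On the log2 scale its level was -1.05 in the hormone horn of gilt 36, -0.63 in gilt 38, -1.50 in gilt 41, -0.71 in gilt 44 and -1.73 in gilt 47. In the placebo horns it was -2.01, -1.58, -2.99, -3.14 and -4.55 in the same order. The placebo horn was lower in every gilt, and the groups overlapped only because the placebo horn of gilt 38 lay above the hormone horn of gilt 47. The mean difference was 1.73 ± 0.29 (SE, n = 5 gilts; 95% interval 1.07 to 2.39), a 3.32-fold higher signal with a limma adjusted p of 0.178. Within scan days the means were 1.70, 1.49 and 1.88. In control gilts the P minus L difference was -0.84, -0.40, 0.13 and 0.59, and the difference of differences was 1.86 ± 0.43 (limma adjusted p 0.594). All 3 LPAR3 probes were higher in the hormone horn, by 1.18 to 1.73.

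Genes of cell division were higher together. Of the 40 genes listed for mitosis and its checkpoints 11 were measured, and all 11 had a higher mean in the hormone horn. At the nominal level 8 of 11 were higher and 0 lower, against 7.12% and 2.53% of all genes, and 8 were higher in all 5 gilts. The list was chosen with earlier results of these data known, so its count is a description and not a test. The median difference over the list was 0.66 log2 units, against 0.08 over all genes, and it was 0.56, 0.54, 0.42, 0.90 and 0.66 in gilts 36, 38, 41, 44 and 47. In control gilts it was -0.23, 0.07, -0.41 and 0.00. With gilts 41 and 47 only, 7 of the 11 were still higher at the nominal level, and the count stayed at 7 or 8 under each scaling and without each gilt. None passed the adjusted threshold, and 7 had a positive difference of differences at the nominal level.

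CDK1, the cyclin-dependent kinase that starts mitosis, had a log2 level of 0.38, 0.34, 0.04, 0.01 and 2.17 in the hormone horns of gilts 36, 38, 41, 44 and 47. Its level in the placebo horns was -0.41, -0.77, -0.82, -2.19 and 1.16. Gilt 47 was high in both horns, and in every gilt the hormone horn lay above its partner. The mean difference was 1.19 ± 0.20 (SE, n = 5; limma adjusted p 0.185), with gilt 44 the highest at 2.19. CCNB1, the cyclin that activates CDK1, had hormone horn levels of 0.09, -0.12, -0.57, -0.60 and 1.61 and placebo horn levels of -0.59, -1.00, -1.00, -1.53 and 0.65. Again gilt 47 was highest in both horns, and each difference was positive (mean 0.77 ± 0.12, limma adjusted p 0.174). The control gilts differed by -0.20 to 0.01 for this gene. TOP2A, the topoisomerase of dividing cells, was 1.04 ± 0.16 higher (0.56 to 1.63 across gilts), and CDC20, an activator of the anaphase-promoting complex, 0.82 ± 0.14 higher (0.62 to 1.15), which came to 0.37 under normexp background correction. In a whole tissue a larger number of dividing cells and more of these transcripts per cell cannot be told apart, and this holds for every gene below.

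Among the 12 higher genes with the smallest p were also 3 genes of the dividing cell that the list does not hold. CCNF, a cyclin that serves as a ubiquitin ligase subunit, had the smallest p of all genes and differed by 0.99, 0.91, 0.91, 1.21 and 0.87 in gilts 36, 38, 41, 44 and 47 (mean 0.98 ± 0.11, limma adjusted p 0.170). In control gilts it was -0.19, -0.03, -0.35 and 0.41, and no control gilt reached a treated one. PBK, a mitotic kinase, had hormone horn levels of 0.57, 0.78, 0.26, 0.07 and 1.34 and placebo horn levels of -0.80, -0.18, -0.72, -2.02 and 0.06. The groups met without overlap, and the mean difference was 1.33 ± 0.17, while its 4 probes ranged from 0.64 to 1.33. SPAG5, a protein of the mitotic spindle, was 1.06 ± 0.15 higher, with differences of 0.71 to 1.62 across gilts and of 0.41 to 1.42 across its 3 probes. The other list members at the nominal level, named after their values were seen, were BIRC5 (0.66 ± 0.11), CCNB2 (0.89 ± 0.22; 0.39 under normexp), CDC25C (0.53 ± 0.14) and CDKN3 (0.34 ± 0.13).

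**Figure D2:**
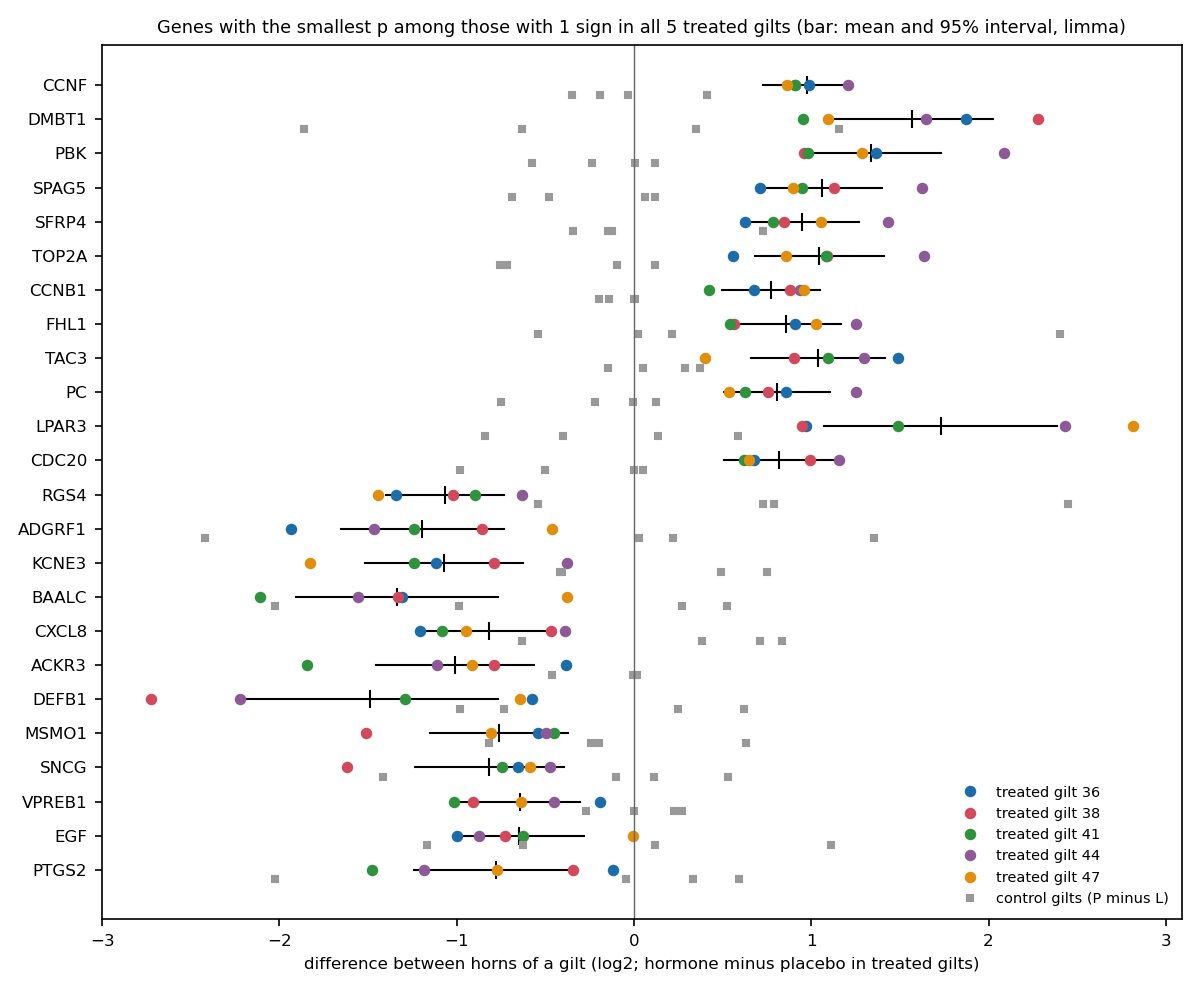
Difference between horns of each gilt in log2 units (x axis) for the 12 genes higher and the 12 lower in the hormone horn that had 1 sign in all 5 treated gilts and the smallest p (y axis); coloured circles are treated gilts, grey squares control gilts (P minus L), and black bars the limma mean with its 95% interval over treated gilts. The circles of CCNF lie within 0.87 to 1.21, while control gilts spread to both sides of 0 for most genes and reach 2.40 for FHL1 and 2.45 for RGS4.

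DMBT1, a secreted mucosal glycoprotein of epithelia, was higher in the hormone horn of every gilt. Its log2 level was 1.02, 1.26, -0.73, 2.04 and 1.61 in the hormone horns of gilts 36, 38, 41, 44 and 47 and -0.86, -1.02, -1.68, 0.39 and 0.51 in their placebo horns. Gilt 41 was lowest in both horns, and its hormone horn lay below the placebo horns of gilts 44 and 47. The mean difference was 1.57 ± 0.20 (SE, n = 5; limma adjusted p 0.170), a 2.97-fold higher signal. The control gilts differed widely for DMBT1, by -1.86, 0.35, 1.16 and -0.63, so a difference as large as that of gilt 41 (0.95) or gilt 47 (1.10) also arose between vehicle horns. The list of 32 uterine secretory products had 22 measured members, 21 of them with a positive difference, 4 higher and 0 lower at the nominal level, and a median of 0.17. Over gilts the median was 0.33, -0.01, 0.07, 0.68 and -0.17, highest in gilts 36 and 44 and negative in gilts 38 and 47. With gilts 41 and 47 alone, and also without gilt 44, 2 members were higher. The difference of differences was positive at the nominal level in 2 of the 22.

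GAL, the precursor of the neuropeptide galanin, had hormone horn levels of -3.05, -6.42, -2.76, -3.89 and -5.75 and placebo horn levels of -6.25, -7.23, -3.66, -6.24 and -7.48. It was a dim probe, well above background in 5 of 5 hormone horns and 3 of 5 placebo horns, and higher in each gilt (mean difference 1.80 ± 0.35, limma adjusted p 0.215; 0.51 under normexp). SERPINA3-2, a serine protease inhibitor of a family of close paralogues that a probe may not separate, was higher in 4 of 5 gilts (0.86 ± 0.28, and 0.25 under normexp) and lower in gilt 47. In control gilts 9, 14, 28 and 46 SERPINA3-2 differed by -0.44, 1.94, 0.68 and 0.31, and its difference of differences was 0.23 ± 0.51. Of the other genes with a uniform direction, SFRP4, a secreted modulator of Wnt signals, had hormone horn levels of 0.48, -1.08, 0.14, -0.17 and 0.15 against -0.15, -1.93, -0.65, -1.60 and -0.90 in the placebo horns (0.95 ± 0.14, limma adjusted p 0.170). Of 7 measured Wnt and hedgehog genes it alone reached the nominal level. TAC3, the precursor of neurokinin B, was 1.04 ± 0.16 higher, although its level varied from -3.61 to 1.53 among hormone horns. PC, pyruvate carboxylase, was 0.81 ± 0.13 higher. IHH, the hedgehog ligand of uterine epithelium that progesterone is known to induce in mice, was higher by 1.00, 0.98 and 1.12 in gilts 36, 38 and 41 and differed by -0.32 and -0.16 in gilts 44 and 47 (0.52 ± 0.24).

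Among genes lower in the hormone horn, RGS4, which shortens signalling by G protein coupled receptors, had the smallest p. Its level was -2.78, -2.46, -2.74, -2.27 and -1.82 in the hormone horns and -1.44, -1.44, -1.84, -1.64 and -0.37 in the placebo horns. Each hormone horn was below its partner, and only that of gilt 47 lay inside the range of the placebo horns. The mean difference was -1.07 ± 0.14 (SE, n = 5; limma adjusted p 0.170). In control gilts it was -0.54, 0.73, 2.45 and 0.79, mostly the other way and with a wider spread than in treated gilts. The list of G protein signal regulators as a whole was centred near 0 (13 of 31 measured, median -0.01, 1 higher and 1 lower at the nominal level). LPAR3 and RGS4 were those 2, and LPAR1 was 0.19 ± 0.13 higher.

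ACKR3, an atypical chemokine receptor that removes CXCL12, separated the groups fully. Its level was 0.71, 0.78, -0.10, 0.31 and 0.48 in hormone horns and 1.09, 1.57, 1.75, 1.42 and 1.40 in placebo horns (-1.01 ± 0.19, limma adjusted p 0.215). KCNE3, a regulatory subunit of potassium channels, did so too, with -0.19, 0.56, 0.55, 0.58 and 0.76 against 0.92, 1.35, 1.79, 0.96 and 2.59 (-1.07 ± 0.19). Its 4 probes disagreed in size, from -1.07 to -0.03. DEFB1, a beta-defensin of epithelia, was 3.27, 1.76, 3.09, 3.43 and 1.12 in hormone horns and 3.84, 4.48, 4.39, 5.65 and 1.76 in placebo horns. It was lower in each gilt, most in gilts 38 and 44 (-1.49 ± 0.31, limma adjusted p 0.241), and its other probe gave -0.43. In control gilts 9, 14, 28 and 46 DEFB1 differed by -0.98, 0.25, -0.73 and 0.62. Differences as large as those of treated gilts 36 (-0.57) and 47 (-0.64) therefore also arose between vehicle horns. ADGRF1, an adhesion receptor coupled to G proteins, differed by -1.19 ± 0.20, but control gilt 9 differed by -2.42. BAALC differed by -1.34 ± 0.25 at a dim level (-0.40 under normexp), MSMO1, an enzyme of cholesterol synthesis, by -0.76 ± 0.17, SNCG, a synuclein, by -0.82 ± 0.18 (-0.50 under normexp), and VPREB1, a surrogate immunoglobulin light chain, by -0.64 ± 0.15. EGF, a growth factor ligand, differed by -1.00, -0.73, -0.63 and -0.87 in gilts 36, 38, 41 and 44 and was level in gilt 47 (-0.65 ± 0.16, limma adjusted p 0.331). Control gilt 9 also went beyond these means, by -2.03 for BAALC, -0.82 for MSMO1, -1.41 for SNCG and -1.17 for EGF. Control gilt 46 differed the other way, by 0.27, 0.63, 0.11 and 1.11 in the same order.

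**Figure D3:**
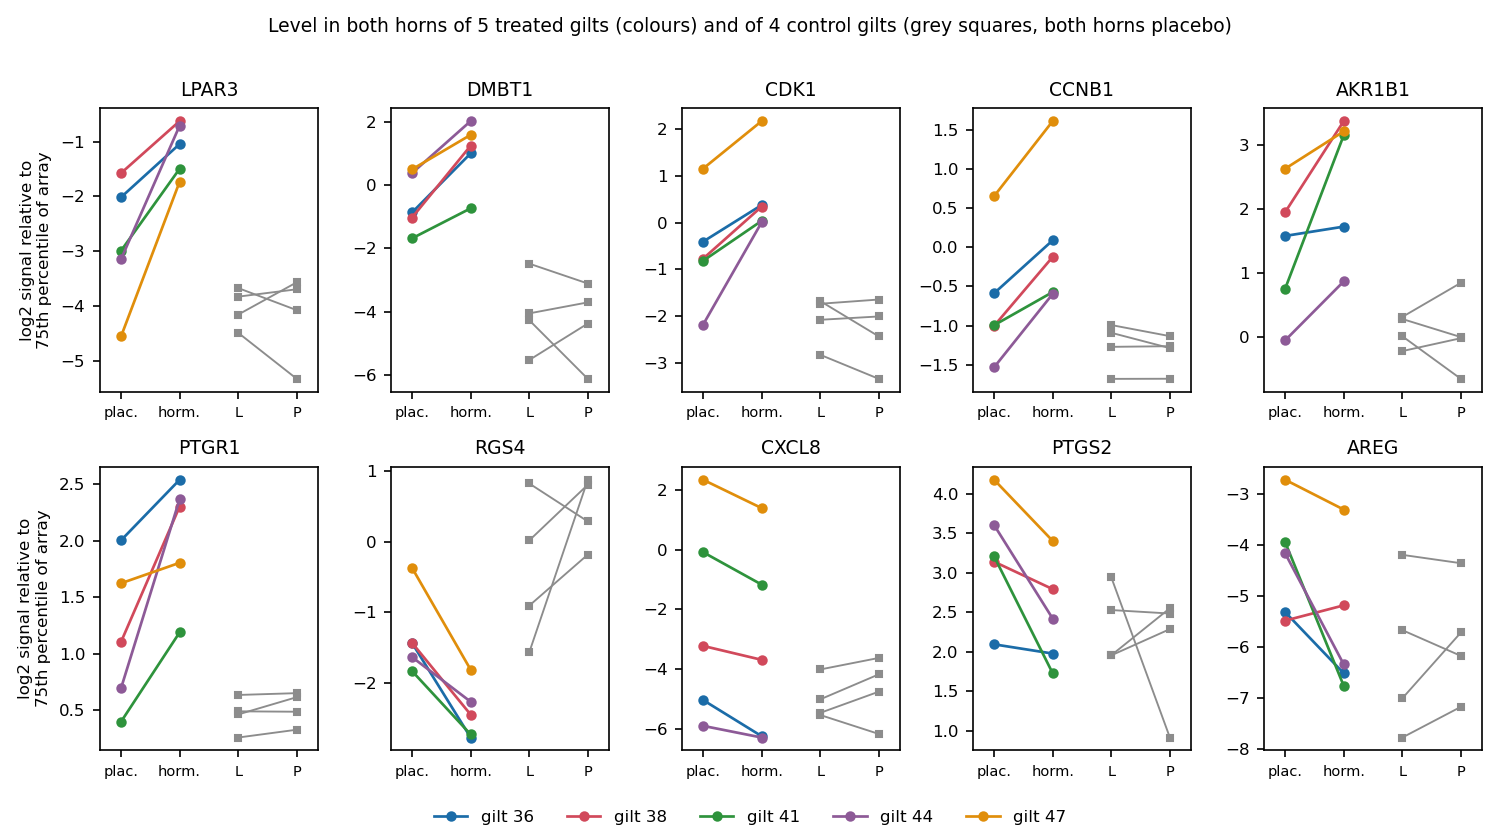
Log2 level relative to the 75th percentile of each array (y axes, 1 scale per gene) in the placebo and the hormone horn of 5 treated gilts (coloured lines join the horns of a gilt) and in the L and P horns of 4 control gilts (grey). The hormone horn lies higher in all 5 treated gilts for LPAR3, DMBT1, CDK1, CCNB1, AKR1B1 and PTGR1 and lower in all 5 for RGS4, CXCL8 and PTGS2, while AREG is 0.30 higher in gilt 38.

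The enzymes of prostaglandin metabolism were on the whole higher, with the inducible cyclooxygenase as the exception. Of 22 genes listed for prostaglandin synthesis and metabolism 12 were measured, 10 with a positive difference, and 6 were higher and 1 lower at the nominal level. The median difference was 0.34, and 0.31, 0.19, 0.45, 0.55 and 0.09 in the 5 gilts, against -0.04, -0.04, -0.14 and -0.02 in control gilts. Without gilt 44 the number higher at the nominal level was 2, and with gilts 41 and 47 only it was also 2. PTGS2, the cyclooxygenase that starts prostaglandin synthesis, was lower in the hormone horn of each gilt. Its level was 1.98, 2.79, 1.73, 2.42 and 3.40 in hormone horns and 2.09, 3.14, 3.21, 3.60 and 4.18 in placebo horns (-0.78 ± 0.20, SE, n = 5; limma adjusted p 0.382). The difference was small in gilts 36 (-0.12) and 38 (-0.35), large in gilts 41 (-1.48) and 44 (-1.18), and exceeded by control gilt 9 (-2.03); its other probe gave -1.36.

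AKR1B1, an aldo-keto reductase able to make prostaglandin F2α, was 1.73, 3.38, 3.16, 0.87 and 3.22 in hormone horns and 1.58, 1.95, 0.76, -0.05 and 2.63 in placebo horns. It was higher in each gilt, from 0.15 in gilt 36 to 2.40 in gilt 41 (1.10 ± 0.29, limma adjusted p 0.390). PTGR1, a reductase that inactivates prostaglandins and leukotriene B4, was 2.54, 2.30, 1.19, 2.37 and 1.80 against 2.00, 1.10, 0.40, 0.69 and 1.62. It too was higher in each gilt, least in gilt 47 (0.88 ± 0.21, limma adjusted p 0.300), and in control gilts it differed by at most 0.15. PTGES, the inducible PGE2 synthase, did not separate the horns (-0.06 ± 0.14; lower in 3 of 5 gilts). The remaining 4 members at the nominal level, named after their values were seen, were AKR1CL1 (0.48 ± 0.15) and AKR1C1 (0.46 ± 0.17; 0.26 under normexp), aldo-keto reductases similar enough that their probes may share signal, CBR1 (0.37 ± 0.13), a carbonyl reductase that converts PGE2, and PTGDS (0.35 ± 0.12), the prostaglandin D synthase. Of 8 receptor genes 2 were measured, PTGFR, the prostaglandin F receptor (-0.21 ± 0.23), and PTGER3, a PGE2 receptor that lowers cAMP (0.02 ± 0.10). Both differences were smaller than the spread between gilts. PTGER2, PTGER4 and HPGD, together with FGF7 and NR4A1, were not among the genes tested here.

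Genes known to answer to cAMP were not higher in the hormone horn. Of 30 listed genes 14 were measured, 3 with a positive mean, 0 were higher and 2 lower at the nominal level (4 lower without gilt 38 and 0 without gilt 44), and the median was -0.12. Gilts disagreed: the list's median was -0.14, 0.37, -0.92, -0.31 and -0.17 in gilts 36, 38, 41, 44 and 47. AREG, a ligand of the EGF receptor induced by PGE2 in many epithelia, differed by -1.20, 0.30, -2.82, -2.18 and -0.59 (-1.30 ± 0.41, limma adjusted p 0.541) at a dim level, above background in 4 of 5 hormone horns, and by -0.41 under normexp. FOS, an immediate early transcription factor, differed by -1.16, 1.16, -2.49, -2.23 and -0.78 (-1.10 ± 0.46, limma adjusted p 0.743), and NR4A2, a nuclear receptor of the same class of early genes, by -0.64 ± 0.34. All 3 were higher in the hormone horn of gilt 38 and lower in the other 4 gilts. Control gilt 9 also differed by -1.64 for FOS.

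**Figure D4:**
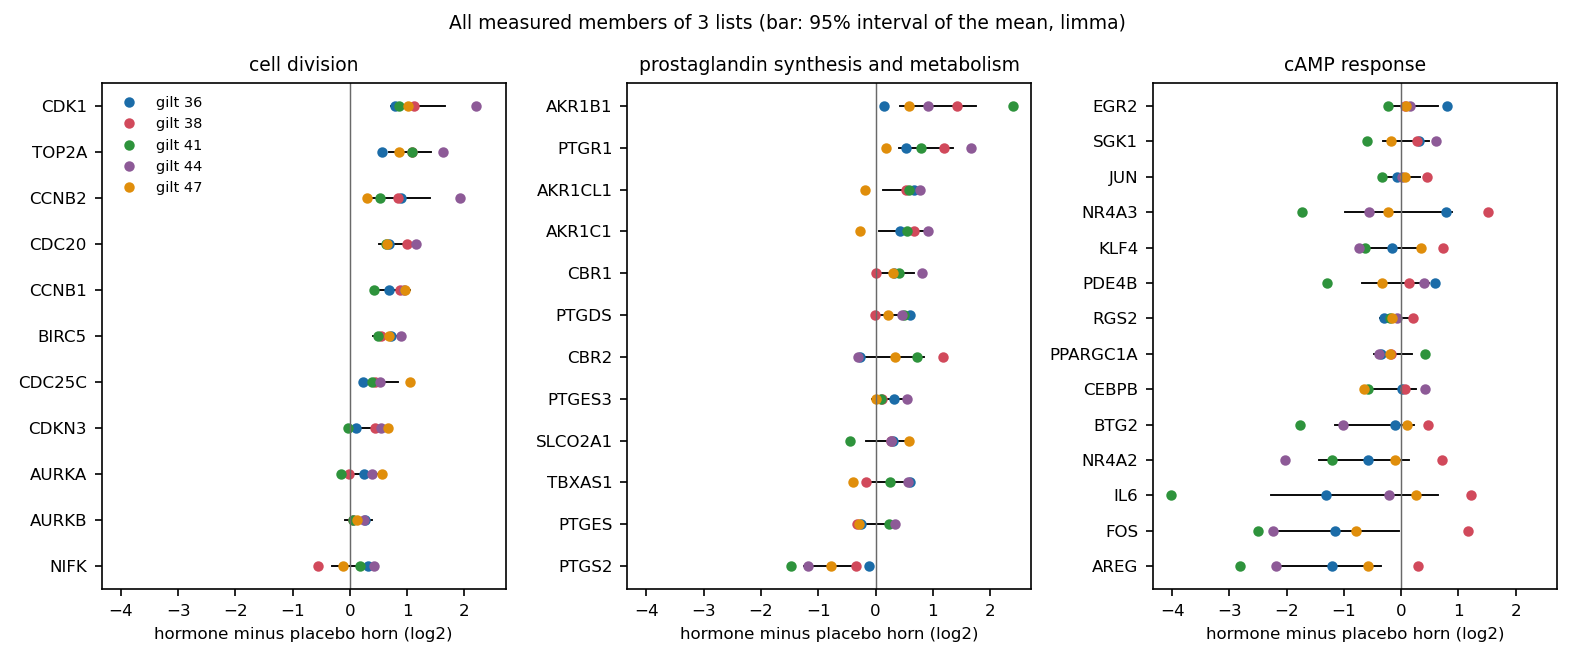
Hormone minus placebo horn in log2 units (x axis) for every measured member of 3 gene lists (y axes); circles are the 5 gilts and bars the 95% interval of the limma mean. All 11 cell division genes have a positive mean, PTGS2 stands apart from the other prostaglandin genes, and the cAMP genes spread to both sides, with gilt 41 lowest for FOS and AREG.

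Receptors for steroids differed little. Of 7 measured receptor genes 0 reached the nominal level (1 without gilt 44): PGR, the progesterone receptor, was 0.33 ± 0.18 higher and ESR1, the main estrogen receptor of the uterus, 0.10 ± 0.13 higher, while NR3C1, the glucocorticoid receptor, differed by -0.11 ± 0.11. ESR1 rested on gilt 36, at 0.53 against -0.17 to 0.11 in the other gilts. Among 12 measured steroid-converting enzymes 3 were higher and 1 lower at the nominal level. HSD17B7, which makes estradiol from estrone and acts in cholesterol synthesis, was lower in all 5 gilts (-0.40 ± 0.11), HSD11B2, which inactivates cortisol, higher in all 5 (0.31 ± 0.12), and HSD11B1, which regenerates it, 0.56 ± 0.22 higher with 0.83 in gilt 41 and 1.51 in gilt 44. The third was CYP17A1, an enzyme of androgen synthesis, named after its value was seen (0.54 ± 0.23; 0.17 under normexp). The number higher was 0 without gilt 41 and 1 without gilt 36 or gilt 44, and 2 were lower without gilt 44. In control gilts 9, 14, 28 and 46 HSD17B7 differed by -0.94, -0.02, -0.26 and 0.39, so gilt 9 went beyond every treated gilt. HSD11B2 differed there by -0.45, -0.09, 0.04 and -0.68, and HSD11B1 by 0.30, 0.28, 0.53 and -0.49.

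The list of 31 estrogen-responsive and implantation genes had few members at the nominal level, LPAR3 among them. Of 20 measured members 11 had a positive difference, 1 was higher and 2 lower at the nominal level, and the median was 0.11. These counts turned with single gilts: 4 were higher and 2 lower without gilt 36, 4 and 0 without gilt 44, 2 and 1 without gilt 41, and 3 and 3 without gilt 47. SPP1, osteopontin, a ligand of integrins at the implantation site, had levels of -0.33, 3.17, 2.69, 0.60 and 5.05 in hormone horns and -0.75, 2.56, 3.46, -0.11 and 5.12 in placebo horns (0.18 ± 0.21). It varied by gilt, not by horn. STC1, a calcium-regulating hormone of uterine glands, differed by -1.76, 0.13, 1.46, -1.04 and 0.30 (-0.18 ± 0.40), and VEGFA, the vascular growth factor, by -0.08 ± 0.14. The 2 lower members were AREG and HBEGF, another ligand of the EGF receptor (-0.79 ± 0.29, lower in 4 of 5 gilts). Of 22 measured growth factor genes 1 was higher, IGFBP6, an IGF binding protein (0.88 ± 0.23; 1.69 in gilt 36 and 1.51 in gilt 44 against 0.23 to 0.50 in the others, and 1.94 in control gilt 9), and 3 were lower, EGF, AREG and HBEGF; 3 were higher without gilt 36, 38 or 47, and 1 was lower without gilt 44. Of 24 measured genes of the TGF-beta superfamily 1 was higher, SMAD7, an inhibitor of the pathway (0.33 ± 0.14), with 0 higher without gilt 36 or 44 and 2 without gilt 47. GDF15, a stress-induced ligand, differed by -0.84 ± 0.41 and TGFB3 by 0.55 ± 0.27. In control gilts 9, 14, 28 and 46 GDF15 differed by -0.95, -0.30, -1.29 and 0.39. TGFB3 differed there by 0.71, 0.20, -0.31 and 0.06, and SMAD7 by 0.51, -0.32, -0.22 and -0.0032.

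Cytokines and chemokines were more often lower. Of 38 listed genes 31 were measured and 26 had a negative mean, though the median was only -0.10; 3 were lower and 1 higher at the nominal level (CCL21, named after its value was seen, 0.26 ± 0.11, and 0.16 under normexp), and 4 were lower in all 5 gilts. Without gilt 44 or gilt 47, 5 were lower and 0 higher. CXCL8, the chemoattractant for neutrophils, had levels of -6.23, -3.68, -1.17, -6.28 and 1.39 in hormone horns and -5.03, -3.22, -0.08, -5.89 and 2.34 in placebo horns. Gilts differed by far more than horns, and each hormone horn was below its partner (-0.82 ± 0.16, limma adjusted p 0.215; -0.51 under normexp). IL1A was lower in all 5 gilts (-0.97 ± 0.26), most in gilt 41 (-2.32), and IL1B likewise (-0.82 ± 0.23, with -1.71 in gilt 41 and -0.09 in gilt 36). Both are interleukin 1 cytokines. In control gilts 9, 14, 28 and 46 IL1A differed by -1.22, 0.40, -0.98 and 0.56. IL1B differed there by -0.31, 0.85, 0.19 and 0.79, and CXCL8 by -0.63, 0.71, 0.38 and 0.84. A difference as large as the mean of IL1A therefore also arose between vehicle horns. The list's median was 0.09, -0.26, -0.57, 0.08 and -0.19 in gilts 36, 38, 41, 44 and 47, so the lean was seen in 3 gilts, and with gilts 41 and 47 only 10 members were lower and 0 higher at the nominal level. Interferon-induced genes were centred near 0 (27 measured, median -0.04, 0 higher and 1 lower), with 4 lower without gilt 41 and 0 without gilt 36, 38 or 44. The 1 lower was CXCL10, a chemokine for T cells (-0.98 ± 0.35), at -1.99 to -1.19 in 4 gilts and 0.85 in gilt 47. In control gilts 9, 14, 28 and 46 CXCL10 differed by -1.16, 0.50, -0.53 and 0.90.

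S100A9 and S100A8, calgranulins (calcium-binding proteins of neutrophils and inflamed epithelia), had the widest differences of the 92 genes whose values are given. S100A9 was -1.22, 3.98, 2.70, -1.94 and 4.12 in hormone horns and -2.50, 0.66, -0.63, -4.74 and 3.84 in placebo horns. Gilts 36 and 44 were low and gilt 47 high in both horns, and the hormone horn was higher in each gilt (2.20 ± 0.44, SE, n = 5; limma adjusted p 0.222). S100A8 differed by 0.62, 3.20, 3.30, 3.05 and -0.13 (2.01 ± 0.52, limma adjusted p 0.384) and S100A12 by 0.30, 2.06, 2.30, 2.54 and -0.63 (1.32 ± 0.45). The 3 genes went together, with wide differences in gilts 38, 41 and 44 and narrow ones in gilts 36 and 47; control gilts differed by -0.65 to 0.58. They are the defining markers of the neutrophil list, of which 12 of 23 genes were measured, with a list median of 0.13. None of the other 9 reached the nominal level. Of these, named after their values were seen, FCN1 differed by -0.60 ± 0.42 and TREM1, above background on 9 of 19 arrays, by -0.63 ± 0.56. The summed linear level of the 12 markers was 6.48 to 74.6 (median 49.8) in hormone horns, 4.57 to 87.9 (median 13.6) in placebo horns and 3.90 to 5.07 in control horns, in units of the array's 75th percentile. Calgranulins make up part of these sums, and the part of neutrophil number in their difference was not tested. With gilts 41 and 47 only, 0 of the 12 were higher and 2 lower at the nominal level.

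Genes of smooth muscle, the muscle layer under the endometrium and the walls of vessels, were also higher in the hormone horn. Of 15 markers 9 were measured, all well above background on 19 of 19 arrays, while MYH11, TAGLN and ACTG2 were not measured. All 9 had a positive mean, 6 were higher at the nominal level and 7 in all 5 gilts, with a median of 0.50 (1.18, 0.25, 0.43, 0.62 and 0.43 by gilt). CNN1, calponin, was 4.35, 2.94, 3.85, 3.74 and 3.02 in hormone horns and 2.31, 2.48, 3.02, 1.34 and 2.13 in placebo horns (1.33 ± 0.28, limma adjusted p 0.245), MYL9, a myosin light chain, was 0.88 ± 0.19 and MYLK, its kinase, 0.50 ± 0.10 higher. The summed level of the 9 markers was 111 to 199 (median 142) in hormone horns and 57.2 to 103 (median 94.5) in placebo horns, without overlap. The same list differed as widely between vehicle horns: its median was 2.92, 0.55, -0.11 and -0.69 in control gilts, its sum ran from 57.3 to 142 in L and from 59.7 to 368 in P horns, and 0 of 9 had a difference of differences at the nominal level. With gilts 41 and 47 only, 4 of the 9 were higher. FHL1, a LIM-domain protein abundant in muscle and among the 12 higher genes (0.86 ± 0.14, groups without overlap), ranged from 0.32 to 0.86 over its 16 probes and differed by 2.40 in control gilt 9, the gilt in which the muscle markers differed most.

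Extracellular matrix genes were found on both sides. Of 33 listed genes 21 were measured, 16 with a positive mean, 5 higher (3 without gilt 44) and 2 lower (1 without gilt 41 or 47) at the nominal level, and the median was 0.23. The difference of differences was positive at the nominal level in 1 of 21 and negative in 0. COL1A2 (0.52 ± 0.16) and COL5A1 (0.63 ± 0.19), chains of fibrillar collagens, and LOX, the enzyme that crosslinks them (0.62 ± 0.19), were all highest in gilt 44 (1.10, 1.43 and 1.37) and near 0 in gilt 41 (0.01, -0.04 and 0.10). In control gilt 9 the same genes differed by 0.45, 0.46 and 1.12, and in the other control gilts by -0.32 to 0.06. With gilts 41 and 47 only, 0 members were higher and 1 lower. The smooth muscle markers differed by a median of 0.62 in gilt 44 and 0.43 in gilt 41, and their part in the difference of the matrix genes was not tested.

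Nutrient transport genes included several that were higher in the hormone horn. Of 30 listed 19 were measured, 15 had a positive mean, 5 were higher and 0 lower at the nominal level, and 5 were higher in all 5 gilts. The median was 0.26, and 0.08 after quantile normalization; the count of 5 was the same there. With the control gilts' difference taken off, 1 of 19 was positive and 0 negative at the nominal level, against 4.59% and 0.864% of all genes. FABP4, a fatty acid binding protein, was -1.07, -0.88, 0.13, -0.94 and -1.69 in hormone horns and -1.69, -1.10, -0.55, -2.03 and -2.37 in placebo horns (0.66 ± 0.14, limma adjusted p 0.241). It was higher in each gilt and alike in 6 probes (0.54 to 0.69). SLC15A1, a transporter of small peptides, was 0.84 ± 0.21 and FABP5 0.66 ± 0.21 higher, both in all 5 gilts. In control gilts 9, 14, 28 and 46 FABP4 differed by 0.70, -0.37, -0.14 and -0.21, so gilt 9 went beyond the treated mean. FABP5 differed there by -0.16, 0.56, 0.59 and 0.21, and SLC15A1 by -0.29, -0.42, 1.47 and -0.66. SLC5A1, the sodium-coupled glucose transporter, was higher by 1.41 and 1.61 in gilts 38 and 41 and by 0.50 in gilt 47, and lower in gilts 36 (-0.14) and 44 (-0.58). With gilts 41 and 47 only, 4 members of the list were higher and 0 lower.

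Among genes of oxygen lack and glycolysis (14 measured, median 0.23), 3 were higher and 1 lower at the nominal level, with 1 higher without gilt 41 and 5 without gilt 38. PDK1, which holds back pyruvate oxidation, was higher in all 5 gilts (0.40 ± 0.12), LDHB, a lactate dehydrogenase chain, in 4 (0.41 ± 0.14), and HIF1A, the oxygen-sensing transcription factor, was lower in all 5 (-0.54 ± 0.17). In control gilts 9, 14, 28 and 46 HIF1A differed by -0.55, 0.20, -0.42 and 0.02. LDHB differed there by 0.48, -0.35, -0.47 and -0.0015, and PDK1 by 0.37, -0.26, 0.15 and -0.05. Of 24 measured ion and water transport genes 0 were higher and 2 lower (0 lower without gilt 36 or 38), ATP2B1, a calcium pump (-0.27 ± 0.10, lower in all 5), and FXYD2, a subunit of the sodium pump (-0.77 ± 0.31). FXYD2 differed by -1.02, -0.65, -0.03 and 0.05 in control gilts 9, 14, 28 and 46. In the antioxidant and detoxification list (28 measured) 3 were higher (7 without gilt 38) and 1 lower (0 without gilt 41): PTGR1, GGT1, which breaks down glutathione (0.85 ± 0.30), and MT3, a metallothionein (0.38 ± 0.13), were higher. MT1A, another metallothionein, was lower (-0.50 ± 0.18) in the 3 gilts with a value on both arrays (38, 41 and 44). Complement genes were split (23 measured, 1 higher and 1 lower, with 0 higher without gilt 36, 38 or 44 and 0 lower without gilt 44 or 47). CFB, factor B, was 0.66 ± 0.24 higher, while in control gilts 9, 14, 28 and 46 it differed by 0.58, 0.20, 0.93 and -0.11. C6 differed by -1.68 ± 0.62 (-1.11 under normexp), with gilt 38 at -4.02 and gilt 41 at 0.80, and with another of its 3 probes at -0.02.

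Lists of constitutive genes and of other cell types had few members at the nominal level. The 35 measured cytosolic ribosomal protein genes had a median of 0.13 with 0 at the nominal level, and the 21 of oxidative phosphorylation 0.12 with 0. A positive mean was found for 33 of the 35 and for 21 of the 21, against 1991 positive and 1016 negative over all genes. Counts of signs as one-sided as those of lists above thus also arose in constitutive genes. By gilt (36, 38, 41, 44 and 47) the ribosomal median was 0.49, -0.20, 0.02, 0.33 and -0.01 and that of oxidative phosphorylation 0.26, -0.18, 0.11, 0.54 and 0.11, against 0.23, -0.12, 0.02, 0.23 and 0.00 over all genes. The markers of T and natural killer cells (17 measured, median -0.10, 0 higher and 1 lower), macrophages and dendritic cells (16, -0.08, 0 and 1), endothelium (10, 0.16, 0 and 0), epithelium (10, 0.10, 0 and 0) and stroma (9, 0.21, 1 and 0) had at most 1 member at the nominal level. MHC genes (17 measured), apoptosis genes (17) and chaperones of the endoplasmic reticulum (10) had 0, adhesion genes and integrins (15) and cholesterol genes (16) 1 lower each, ITGA4 (-0.43 ± 0.18) and MSMO1. Without gilt 38, 3 cholesterol genes and 3 of oxidative phosphorylation were higher, and without gilt 44, 3 cholesterol genes were lower.

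**Figure D5:**
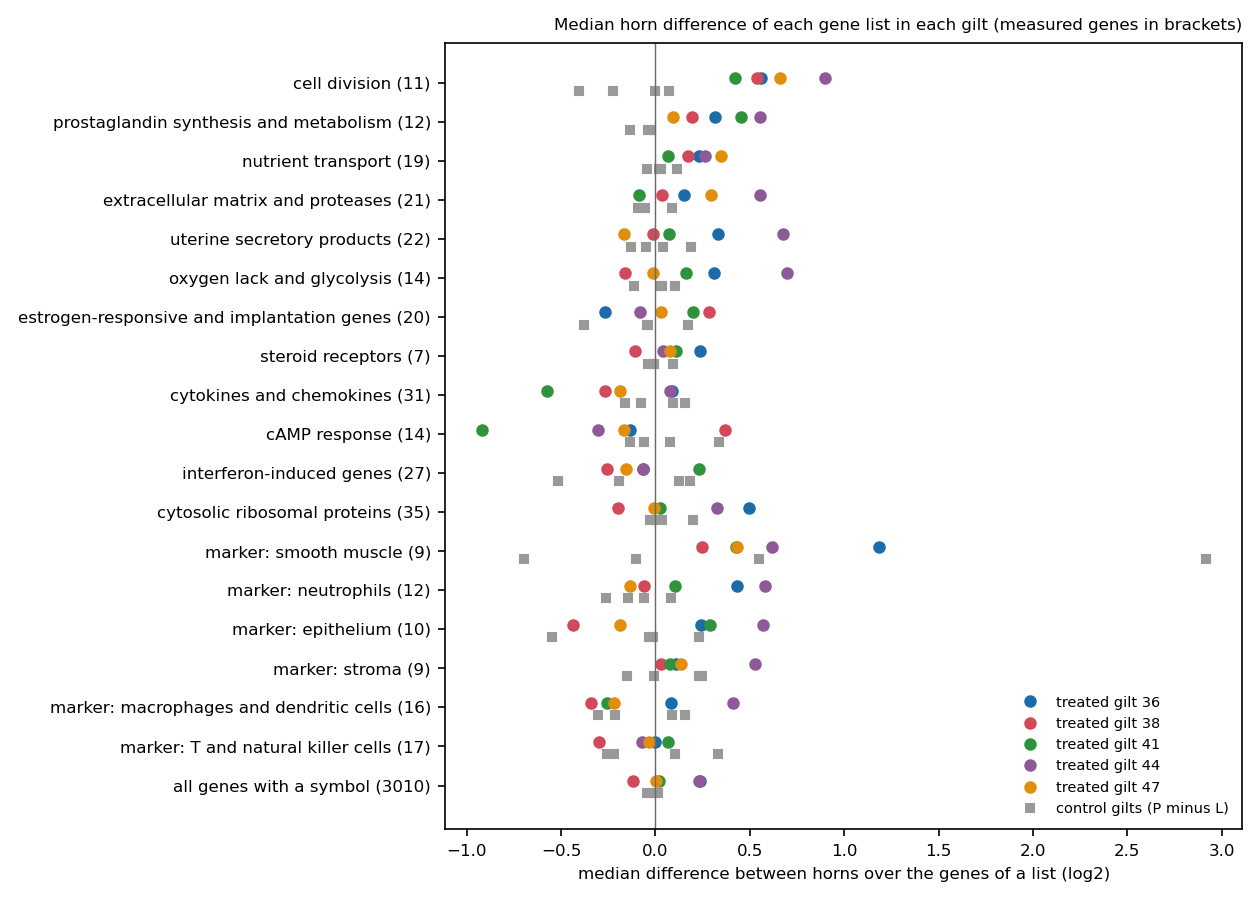
Median difference between horns in log2 units (x axis) over the measured genes of each list (y axis, number of genes in brackets), in each treated gilt (coloured circles, hormone minus placebo horn) and control gilt (grey squares, P minus L). All 5 circles of cell division lie to the right of the control gilts, from 0.42 to 0.90, while control gilt 9 lies at 2.92 for smooth muscle.

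How far the horns differed overall depended on the gilt. The SD over probes of the horn difference was 0.772, 0.450, 0.406, 0.555 and 0.448 log2 units in gilts 36, 38, 41, 44 and 47, and 0.509, 0.380, 0.523 and 0.286 in control gilts 9, 14, 28 and 46. Gilt 36 was the widest, and the other treated gilts lay among the control gilts or just above them. The means were 0.526 ± 0.148 (SD, n = 5) and 0.425 ± 0.112 (SD, n = 4), and an exact two-sided permutation test over gilts gave p = 0.349. The share of probes that differed by more than 1 log2 unit was 12.4%, 3.45%, 3.33%, 6.64% and 3.64% in treated and 4.61%, 2.69%, 3.17% and 1.07% in control gilts (exact p = 0.175). These tests do not show that the spreads are alike. The comparison of spreads was added after the data were seen and used 3 measures; the third, the interquartile range, gave an exact p of 0.111, and Benjamini-Hochberg adjustment over the 3 gave 0.349, 0.262 and 0.262.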

How the data were processed

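RNA was extracted in TRIzol and 0.5 µg of it carried the Cy3 dye, per the labels' protocols. The deposited scanner files give linear intensity per spot, per the file headers, from Agilent Feature Extraction 10.7.3.1 (the submitters' processing notes name version 9.1), already background-subtracted within each array. The authors' deposited table gives values on a log2 scale, and served as an alternative, with the normalization not given by the labels or headers. Here, values were log2 intensity relative to each array's 75th percentile, control spots and outlier marks left out (509 values of tested probes on the 10 arrays), spots of a probe averaged. Of 43603 probes, 39095 were well above background on at least 4 arrays; 39075 could be fitted. Symbols came from RefSeq accessions in the scanner files through the table of Sscrofa11.1 (6768 probes with a symbol, 36835 without; 3010 genes, each by the probe with the highest mean signal).

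Arrays with the same gilt number come from 1 animal, per the labels; their deviations from group means correlated at 0.336 to 0.795, and at no more than 0.113 with other gilts. Each pair also shared a slide, which cannot be told apart from the animal. limma 3.58.1 (R 4.3.3; eBayes with trend, gilt as a block, two-sided, Benjamini-Hochberg over all tested probes) gave differences, standard errors and adjusted p. The number of gilts limits the precision. The model was tested on simulated data. Exact permutation tests used scipy 1.17.1. Alternatives changed scaling, background correction, filter, moderation, block, gilts and scan day; normexp was run on median signals, since the scanner files used here hold no mean signal.

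Named genes are the 12 with the smallest p in each direction among those with 1 sign in all 5 gilts, up to 3 of each of 36 lists with the smallest p, and fixed genes such as LPAR3, PTGS2 and CDK1; not all list genes are described, and those named after their values were seen are marked as such. Members and lists were chosen with earlier results of these data known.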

Additional observations from a re-analysis of the deposited data

Results flagged for a closer look

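Over 182 sets of horn differences, 1 per gene described and group with at least 4 gilts, 10 held a gilt that lay far from the others of its group by Dixon's test at the 95% level, and chance alone gives about 1 in 20. Among treated gilts these were gilt 44 for CDK1 (2.19), gilt 38 for SNCG (-1.62) and gilt 41 for IL1A (-2.32), each in the same direction as the other 4 gilts. They also held gilt 47 for SERPINA3-2 (-0.61), CXCL10 (0.85) and AKR1CL1 (-0.19), each in the direction opposite to the other 4 gilts. Among control gilts they were gilt 28 for ACKR3 (-0.46) and gilt 9 for IGFBP6 (1.94), MT3 (0.21) and CD80 (0.52). Without gilt 44 the difference of CDK1 was 0.94, still positive in every remaining gilt.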

How the results depend on the processing

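In limma, 0 probes differed between horns under each scaling, background correction, filter and moderation tried, and without a replicate block (smallest adjusted p 0.144 to 1.00 over these alternatives). With the gilt as a random replicate block 1 probe passed over 11 arrays of treated gilts (adjusted p 0.0478, difference 1.74 ± 0.20, probe A_72_P500935) and 1 other over all 19 arrays (0.0342, 1.41 ± 0.19, A_72_P705429); neither has a symbol here, and paired they differed by 1.70 and 1.36. Within scan day 1 (gilts 36 and 44) 3 probes passed, all among the 52 on which 3 arrays stood apart, and within scan day 3 (gilts 38 and 47) 0; day 2 holds 1 gilt and gives no test. Leaving out 1 gilt at a time gave 0 to 0 probes, with 1049 (without gilt 44) to 2301 (without gilt 38) higher and 525 to 1293 lower at an unadjusted p under 0.05, and gilts 41 and 47 alone, a setting added after the data were seen, gave 0 (1211 and 843). The differences of differences and the control gilts gave 0 under every alternative run.

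Over the 92 genes whose values are given, 1756 of 1790 alternative values kept their direction and their side of the threshold, and 34 over 19 genes turned. Part of this agreement was fixed in advance. Changing the filter or moderation, or dropping the block, leaves the mean difference unchanged for a gene with a value on every paired array. Genes with 1 sign in every treated gilt, many of them chosen for it, cannot turn when gilts are left out or taken by scan day. The count of 1756 is therefore no measure of robustness. Within scan day 1 the values that turned were PTGES (0.0411), PGR (-0.0585), SLC5A1 (-0.36), FCN1 (0.64) and TREM1 (0.70). On day 2, gilt 41 alone, they were PTGES (0.24), PTGFR (0.63), SPP1 (-0.77), STC1 (1.46), COL5A1 (-0.0424), C6 (0.80), ICOS (0.31), TGFB3 (-0.25), CDKN3 (-0.0349) and PTGER3 (-0.0297). Within day 3 they were ESR1 (-0.10), STC1 (0.22), VEGFA (0.13), FOS (0.19) and NR4A2 (0.30). SPP1 (-0.42), STC1 (0.88), NR3C1 (0.0224) and PTGER3 (-0.0421) turned in gilts 41 and 47 alone, PTGER3 also after quantile normalization (-0.0105), in the deposited table (-0.0228) and under normexp (-0.0232), and ESR1 (-0.0237) as the mean of its probes. Leaving out 1 gilt at a time gave PTGES -0.16 (without gilt 44) to 0.00684 (without 38), ESR1 -0.0129 (without 36) to 0.16, STC1 -0.59 to 0.21 (without 36; also turned without 44), PTGER3 -0.00898 (without 36) to 0.0377 and VEGFA -0.17 to 0.00785 (without 41). The cause was not tested. The planned correction on mean signals was not run. Under normexp GAL, BAALC, AREG and SERPINA3-2 differed most from their values above.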

Other observations

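The hormone horn of gilt 40, marked L and without a partner, entered no difference. Its log2 level was -2.59 for LPAR3, within the range of the placebo horns and below all 5 paired hormone horns, and above the control gilts (-5.32 to -3.56). For DMBT1 it was 2.15, for CDK1 -0.09, for CCNB1 -0.11, for RGS4 -2.72, for AKR1B1 0.36, for PTGR1 2.85, for S100A9 2.35, for DEFB1 2.25 and for PTGS2 3.33.

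Both horns of treated gilts could lie apart from control gilts for the genes described above. The control horns had DMBT1 levels of -6.14 to -2.48, below every placebo horn, CDK1 levels of -3.35 to -1.65, PTGR1 levels of 0.26 to 0.65 and S100A9 levels of -4.71 to -3.06. These values set gilts against gilts and were not tested here.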
